A study of Mus musculus with 12 samples.

Results

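Ligand and receptor genes of the VEGF and angiopoietin systems were followed in mouse glomeruli through diabetes and treatment with arctigenin (ATG), a plant lignan. They were taken by gene symbol and are 10 of the 14096 genes listed in each file. There were 4 ligand genes (Vegfa, Vegfc, Angpt1 and Angpt2) and 6 receptor genes (Kdr, Flt1, Nrp1, Nrp2, Tek and Tie1). Poly-A mRNA of isolated glomeruli was sequenced in 12 samples, 3 in each of 4 groups. All groups were male eNOS-/- mice on C57BL/6J, so the vehicle-treated nondiabetic controls also lacked endothelial nitric oxide synthase, and no wild-type mice were among the samples. Streptozotocin (STZ), given at an age of 8 weeks for 5 days at 50 mg/kg daily, made mice diabetic, while the nondiabetic ones were injected with citrate buffer. Mice of both kinds were gavaged daily with ATG at 40 mg/kg or with its vehicle, 5% DMSO. Gavage began 10 weeks after induction and lasted 8 weeks. The groups are called vehicle-treated nondiabetic, ATG-treated nondiabetic, vehicle-treated diabetic and ATG-treated diabetic below, and samples are numbered 1 to 3 within each. The labels do not say whether the samples of a group came from separate animals, so p-values measure only the spread between these samples.

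In the glomerulus, podocytes make VEGF-A, which crosses the basement membrane to receptors on the fenestrated endothelium. KDR (VEGFR2) carries most of the growth and survival signal, FLT1 (VEGFR1) binds VEGF-A tightly and its soluble form acts as a decoy, and the neuropilins NRP1 and NRP2 are co-receptors that also bind class 3 semaphorins. ANGPT1 activates the receptor TEK (TIE2) and steadies the endothelium, ANGPT2 can oppose it, and TIE1 is a partner of TEK without a well established ligand of its own. VEGF-C is best known as a ligand of FLT4 and of KDR, with NRP2 as its co-receptor. Diabetic kidney disease is a setting in which both systems are known to be disturbed.

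The sequence upstream of 4 members is shown here because they stand for the podocyte ligand, the neuropilin that rose in diabetes and the TIE receptors. The stretches are from RefSeq on GRCm38.p6, 5′ to 3′ on the strand of the gene, and keep only bases of the 250 before the listed start that lie outside the annotated exons and outside the RefSeq gene. Capitals mark GGAA or its reverse complement TTCC, the core letters of ETS factor sites, searched on both strands.
Vegfa, chr17:46032378-46032627, minus strand: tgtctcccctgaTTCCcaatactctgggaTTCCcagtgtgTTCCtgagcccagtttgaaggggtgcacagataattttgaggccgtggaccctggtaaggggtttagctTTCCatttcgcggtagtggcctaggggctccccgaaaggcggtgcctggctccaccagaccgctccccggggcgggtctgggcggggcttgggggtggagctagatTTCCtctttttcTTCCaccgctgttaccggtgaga
Nrp2, chr1:62703067-62703284, plus strand: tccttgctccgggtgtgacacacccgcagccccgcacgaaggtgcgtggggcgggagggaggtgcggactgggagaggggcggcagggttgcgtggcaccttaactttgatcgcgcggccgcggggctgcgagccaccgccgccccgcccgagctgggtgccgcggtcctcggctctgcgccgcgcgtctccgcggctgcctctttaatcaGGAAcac
Tek, chr4:94739039-94739085, plus strand: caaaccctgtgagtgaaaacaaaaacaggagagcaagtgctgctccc
Tie1, chr4:118490062-118490099, minus strand: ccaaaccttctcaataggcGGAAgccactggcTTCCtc
In the whole 250 bases, the windows held 6 such matches for Vegfa, 1 for Nrp2, 2 for Tek and 7 for Tie1, with 4 each for Kdr, Flt1 and Nrp1 and 1 for Vegfc. Matches were common everywhere. Of 32851 promoter windows of that length, 93.4% held at least 1, with a median of 3 and a 90th percentile of 5. The hypoxia core ACGTG or its reverse complement CACGT, held by 16.6% of the windows, was absent from these 4 windows and from those of Kdr, Flt1, Nrp1 and Vegfc. A second Vegfa entry, inside the gene and over annotated exons, held 1. A match describes the letters only. Entries were found for 8 of the 10 members, Angpt1 and Angpt2 being the others.

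All 10 members were well read. Recovered reads ran from 92 to 389 for Vegfc and from 211 to 798 for Angpt1, the members with the fewest, and from 10745 to 32616 for Nrp1. Libraries held 23638055 to 29768862 reads on listed genes, the fewest in ATG-treated nondiabetic sample 1. Samples 2 and 3 of that group held 25730834 and 26972104. Per length, as reads divided by the length of the listed transcript and the listed reads of the library (RPKM), vehicle-treated nondiabetic glomeruli held most Vegfa at 177 ± 17.2 (SD, n = 3), followed by Nrp1 at 161 ± 6.47 and Kdr at 148 ± 3.66. Tie1 was at 71.8 ± 7.64 RPKM, Tek at 52.2 ± 3.55, Flt1 at 45.7 ± 3.59 and Angpt2 at 26.0 ± 1.07. Nrp2 at 6.52 ± 0.336, Vegfc at 6.16 ± 1.53 and Angpt1 at 4.16 ± 0.586 RPKM were the lowest. Neighbours whose samples overlapped in this order were Vegfa and Nrp1, Tek and Flt1, Nrp2 and Vegfc, and Vegfc and Angpt1. The order of the lowest members shifted with the groups. Angpt1 was the lowest of the 10 in vehicle-treated diabetic glomeruli, at 2.03 ± 0.195 RPKM, with every sample below every Vegfc sample, and also in ATG-treated diabetic glomeruli, at 2.33 ± 0.508. In ATG-treated nondiabetic glomeruli it stood above Nrp2 and Vegfc at 5.72 ± 1.83 RPKM. Vegfa, Kdr and Nrp1 were the top 3 in every group.

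**Figure D1:**
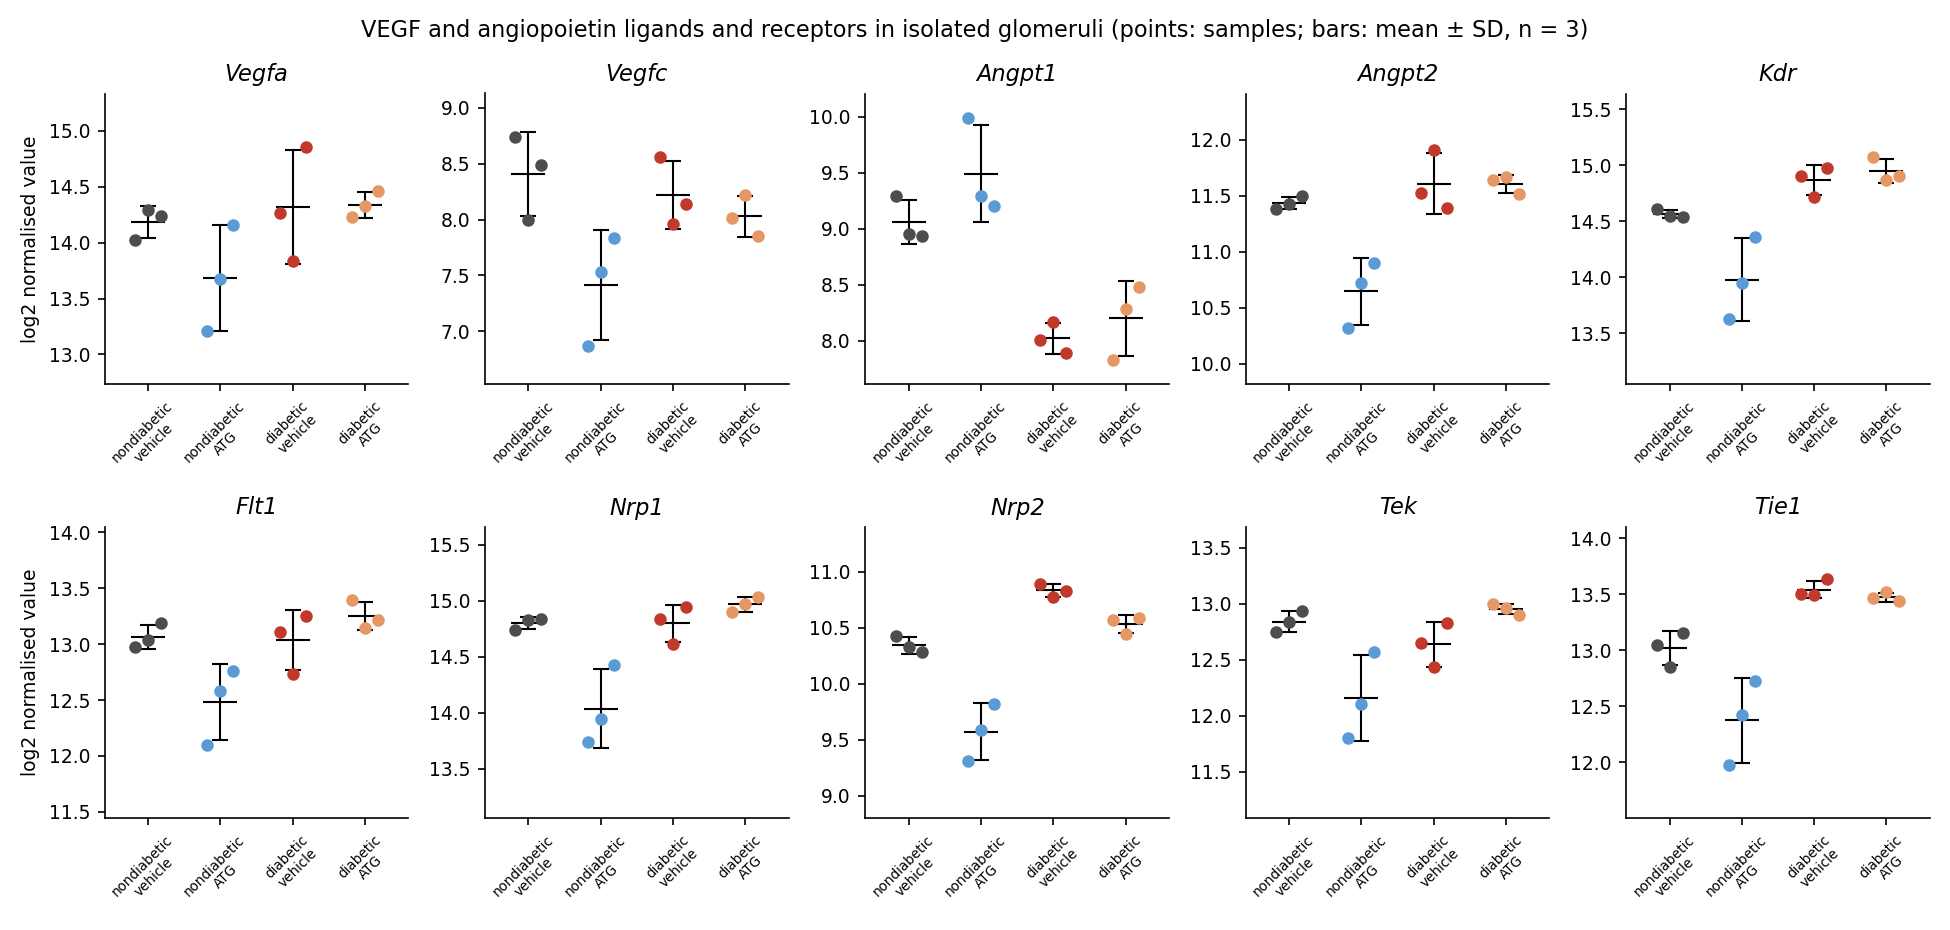
Log2 normalised value of each member (vertical axis, the same span in every panel) in the 4 groups (horizontal axis), with 1 point per sample and bars for mean ± SD, n = 3. Angpt1 sits lower in all diabetic samples than in all nondiabetic samples, Nrp2 and Tie1 sit higher in vehicle-treated diabetic than in vehicle-treated nondiabetic samples, and the ATG-treated nondiabetic group is the lowest and most spread for the receptors.

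The first question was what diabetes did in vehicle-treated mice. Angpt1 fell and Nrp2 and Tie1 rose, while the other 7 members did not pass the test. The deposited log2 values of all genes were fitted with limma, with p-values adjusted by Benjamini-Hochberg over 14096 genes and a threshold of 0.05. There were 3 of 10 members that passed, beside 18.9% of all genes, so the share is described and not read as particular to these genes. Samples of the groups compared did not overlap for 4 members, beside 41.7% of all genes. By direction, 10.2% of all genes were called higher and 8.63% lower.

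Angpt1, the activating ligand of TEK, showed the largest change of the 10. Its log2 value was 9.29, 8.96 and 8.94 in the vehicle-treated nondiabetic samples and 8.00, 8.16 and 7.89 in the vehicle-treated diabetic samples. Every diabetic sample was below every nondiabetic one. The log2 fold change was -1.04 (SE 0.217, limma adjusted p = 0.0113), or 0.486 of the nondiabetic level. In the ATG-treated groups the drop was as wide, from 9.99, 9.29 and 9.20 to 7.83, 8.29 and 8.48, with a log2 fold change of -1.30 (SE 0.217, adjusted p = 0.0012). That call was lost with the mean of 30 tubule markers as a covariate (-1.12, adjusted p = 0.234), and 29 of those markers were called lower there. The call in vehicle-treated mice was kept in 20 of 21 alternative settings, with log2 fold changes from -1.11 to -0.90. It was lost with the same covariate (-0.90, SE 0.381, limma adjusted p = 0.202), with which 244 of all genes were called, against 2659 without it. In both comparisons the tubule means of the groups did not overlap, so this fit cannot well separate the covariate from diabetes. The tubule mean was 13.08 ± 0.313 in vehicle-treated nondiabetic and 11.64 ± 0.680 in vehicle-treated diabetic samples, with 20 of the 30 markers lower in diabetes by the same test, and summed linear values of 513584 to 624316 against 126756 to 346871. None of the 30 markers was at 0. Set against the tubule mean of its own sample, Angpt1 differed between these groups by 0.40 log2 units upwards, with overlapping samples (two-sided exact permutation p = 0.4). Set against the mean of 30 podocyte markers it was lower by -1.18, and against that of 20 mesangial markers by -0.75, with the groups apart in both (exact permutation p = 0.1). These references were chosen after the values were seen. With 3 samples against 3, 0.1 is the smallest p the exact test can give, so it cannot pass 0.05. The part of tubule RNA in the Angpt1 result was not tested beyond these values, and in these bulk samples fewer cells of a type and less RNA per cell cannot be told apart.

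Angpt2, the context-dependent antagonist made largely by endothelium, was at 11.39, 11.43 and 11.50 in vehicle-treated nondiabetic samples and at 11.52, 11.91 and 11.39 in vehicle-treated diabetic ones. The samples overlapped, with a log2 fold change of 0.17 (95% interval -0.16 to 0.51, limma adjusted p = 0.448). The balance of the 2 ligands therefore moved mainly with Angpt1. Within a sample, Angpt2 minus Angpt1 was 2.10, 2.47 and 2.56 log2 units in vehicle-treated nondiabetic glomeruli and 3.52, 3.75 and 3.50 in vehicle-treated diabetic ones. The groups were apart by 1.21 log2 units, a 2.32-fold higher ratio (exact permutation p = 0.1, the smallest possible). In ATG-treated diabetic samples the balance was 3.81, 3.38 and 3.04, overlapping the vehicle-treated diabetic samples, with a difference of -0.18 (exact permutation p = 0.5). In ATG-treated nondiabetic samples it was 0.33, 1.43 and 1.70, below every vehicle-treated nondiabetic sample.

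Of the TIE receptors, Tie1 passed the test in diabetes and Tek, which binds these ligands, did not. Tie1 was at 13.05, 12.85 and 13.15 in vehicle-treated nondiabetic samples and at 13.50, 13.49 and 13.63 in vehicle-treated diabetic ones, with no overlap. Its log2 fold change was 0.52 (SE 0.155, limma adjusted p = 0.0388). That call was the least stable of the 3. It was kept in 8 of 21 alternatives and lost in 13, among them leaving out any sample of either group compared, with adjusted p from 0.0549 without vehicle-treated diabetic sample 2 to 0.140 without vehicle-treated nondiabetic sample 2, leaving out any ATG-treated diabetic sample or ATG-treated nondiabetic sample 2, limma-voom on recovered reads (0.0618), a block for the number in the sample title, which is not the sample number used here (0.116) and the tubule covariate (0.490). The log2 fold change stayed between 0.33 and 0.59 throughout. Tek, at 12.75, 12.84 and 12.94 against 12.65, 12.43 and 12.82, was not called (-0.20, 95% interval -0.56 to 0.15, adjusted p = 0.397). Tie1 minus Tek within a sample was 0.31, 0.01 and 0.22 log2 units in vehicle-treated nondiabetic and 0.85, 1.06 and 0.81 in vehicle-treated diabetic glomeruli. The diabetic samples all lay above the nondiabetic ones, by 0.73 log2 units or 1.66-fold (exact permutation p = 0.1, the smallest possible), and leaving out any sample moved this between 0.64 and 0.79.

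**Figure D2:**
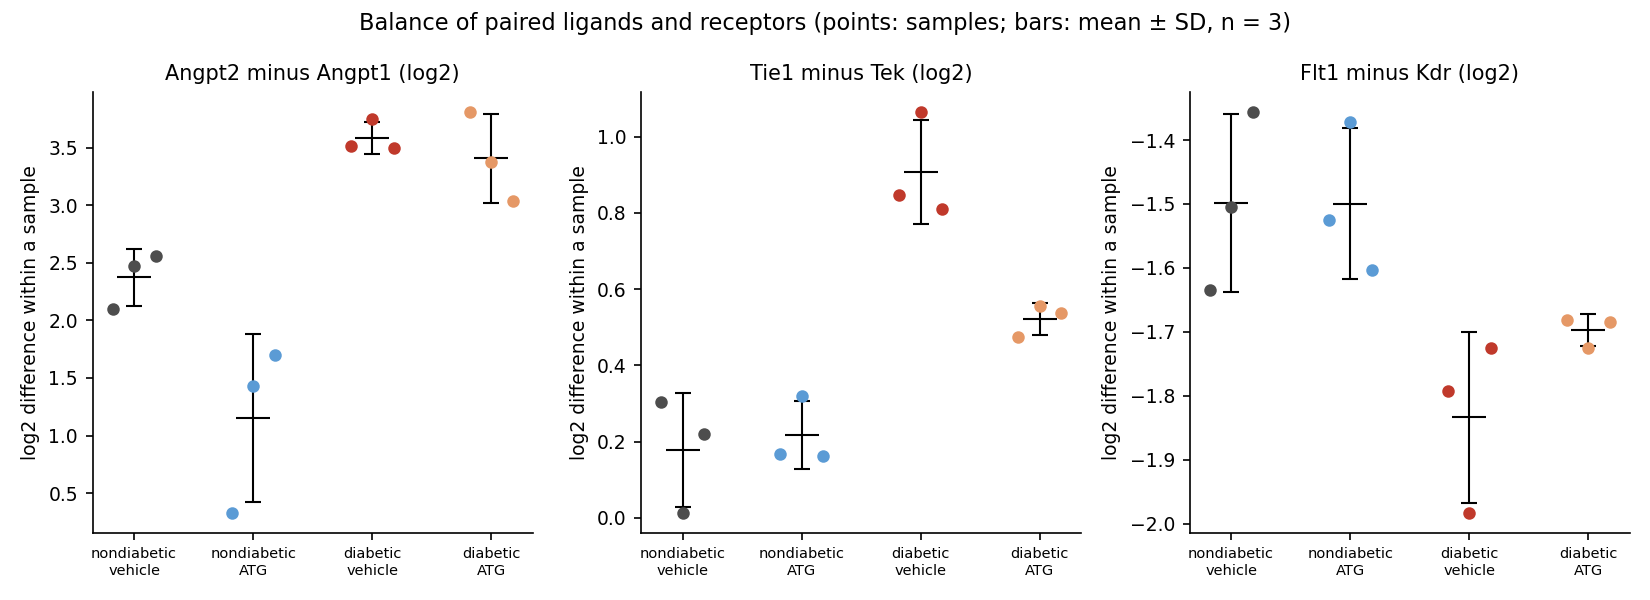
Difference of 2 log2 values within each sample (vertical axis) for Angpt2 minus Angpt1, Tie1 minus Tek and Flt1 minus Kdr in the 4 groups (horizontal axis), with 1 point per sample and bars for mean ± SD, n = 3. In each panel the 3 vehicle-treated diabetic samples do not overlap the 3 vehicle-treated nondiabetic samples, and only for Tie1 minus Tek are the vehicle-treated and ATG-treated diabetic samples apart.

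The VEGF ligands did not differ detectably with diabetes. Vegfa, made by podocytes, was at 14.02, 14.29 and 14.24 in vehicle-treated nondiabetic samples and at 14.26, 13.84 and 14.86 in vehicle-treated diabetic ones. The diabetic samples spread on both sides of the controls, and the log2 fold change was 0.13 (95% interval -0.43 to 0.70, limma adjusted p = 0.747). Set against the podocyte marker mean of its own sample, Vegfa was 0.12, 0.25 and 0.21 log2 units higher than that mean in vehicle-treated nondiabetic and 0.18, 0.04 and 0.33 in vehicle-treated diabetic glomeruli. These overlapped (difference -0.009, exact permutation p = 1.0). The podocyte mean itself ran from 13.80 to 14.52 in the vehicle-treated diabetic samples, lowest and highest in the same samples as Vegfa. Vegfc was at 8.74, 8.00 and 8.49 against 8.56, 7.96 and 8.13, with overlapping samples and a log2 fold change of -0.19 (95% interval -0.76 to 0.38, adjusted p = 0.639).

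Of the VEGF receptors, Kdr was at 14.61, 14.54 and 14.54 in vehicle-treated nondiabetic samples and at 14.90, 14.72 and 14.98 in vehicle-treated diabetic ones. The groups did not overlap, but the log2 fold change of 0.30 was not called (SE 0.159, limma adjusted p = 0.196). Flt1 was at 12.97, 13.04 and 13.19 against 13.11, 12.74 and 13.25, with a log2 fold change of -0.03 (95% interval -0.40 to 0.34). The values sum all reads of the gene, so the soluble and membrane forms of Flt1 are not separated. Flt1 minus Kdr was -1.63, -1.51 and -1.36 log2 units in vehicle-treated nondiabetic glomeruli and -1.79, -1.98 and -1.73 in vehicle-treated diabetic ones. Flt1 was lower relative to Kdr in every diabetic sample, by -0.33 log2 units (exact permutation p = 0.1, the smallest possible).

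Of the neuropilins, Nrp2 passed the test and Nrp1 did not, and the difference between them was not tested. Nrp2, the co-receptor for VEGF-C and class 3 semaphorins, was at 10.43, 10.33 and 10.28 in vehicle-treated nondiabetic samples and at 10.89, 10.78 and 10.83 in vehicle-treated diabetic ones. All diabetic samples were higher, with a log2 fold change of 0.49 (SE 0.109, limma adjusted p = 0.0142), or 40.3% more. The call was kept in 17 of 21 alternatives, with log2 fold changes from 0.42 to 0.53 over all 21, and lost without vehicle-treated diabetic sample 1 (0.0561), without vehicle-treated nondiabetic sample 2 (0.0578), with the tubule covariate (0.230) and with the block for the title number (0.0725). Nrp1, far more abundant per length, was at 14.74, 14.83 and 14.84 against 14.84, 14.62 and 14.94. Its log2 fold change was close to 0, with a 95% interval of -0.35 to 0.34.

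**Figure D3:**
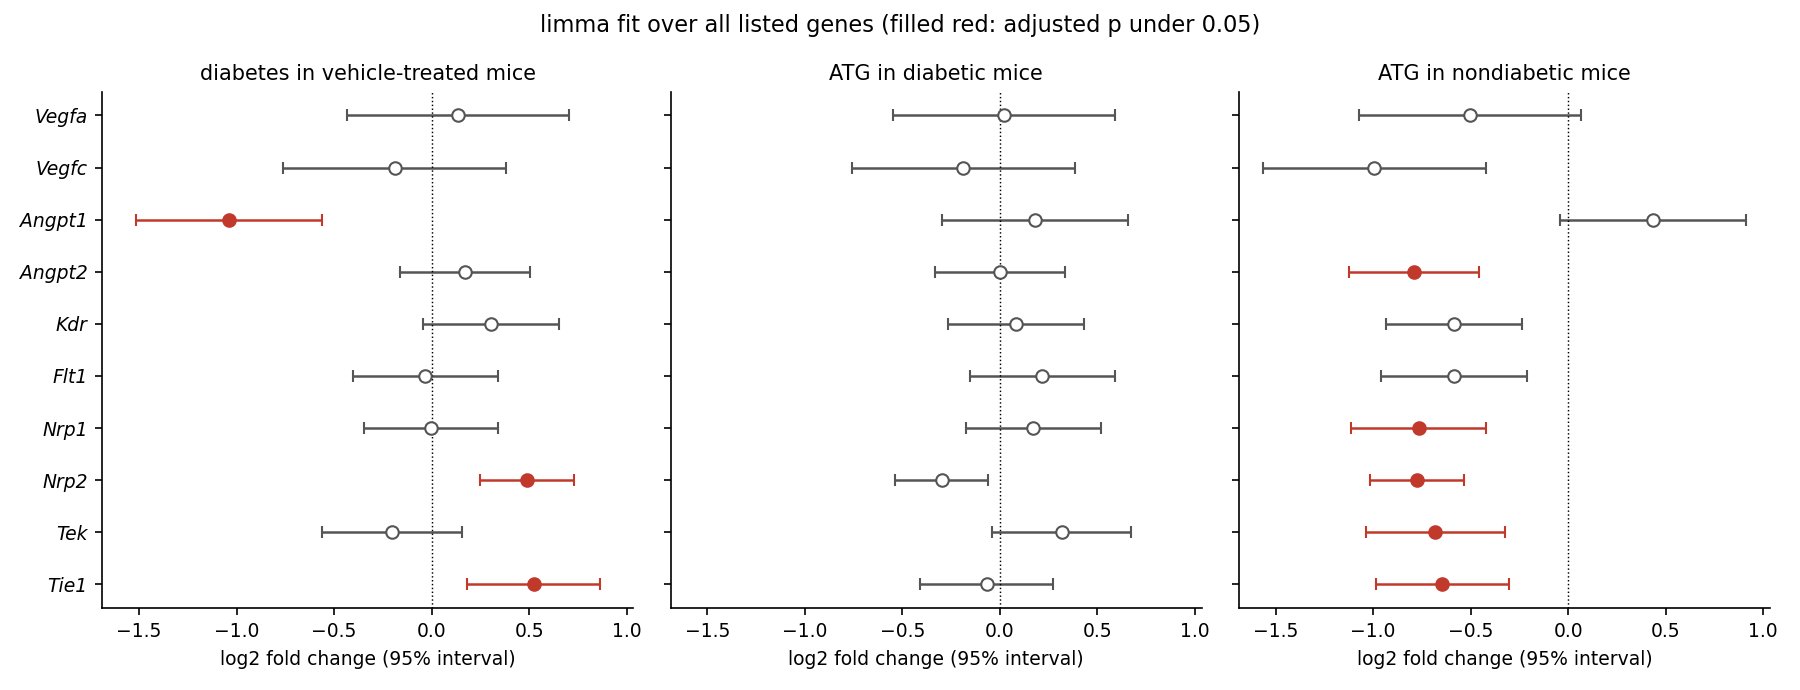
Log2 fold change of each member (horizontal axis, with 95% interval) for 3 comparisons, members on the vertical axis. Filled red points passed an adjusted p of 0.05 in limma, and they are Angpt1, Nrp2 and Tie1 for diabetes, none for ATG in diabetic mice, and Angpt2, Nrp1, Nrp2, Tek and Tie1 for ATG in nondiabetic mice.

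Most of these receptors are endothelial, and other endothelial genes also differed with diabetes. The mean of 30 endothelial markers, none of them a member, was 12.18 ± 0.0739 in vehicle-treated nondiabetic and 12.67 ± 0.0684 in vehicle-treated diabetic samples, with 17 of the 30 called higher and none lower. None of the markers was at 0. Each receptor was therefore also set against the endothelial mean of its own sample, a comparison chosen after the values were seen. Tie1 and Nrp2 moved with that mean, with differences of 0.03 (exact permutation p = 0.6) and -0.004 (exact permutation p = 1.0) and overlapping samples. Tek was 0.56, 0.73 and 0.68 log2 units above the endothelial mean in vehicle-treated nondiabetic samples, and at -0.04, -0.16 and 0.10 in vehicle-treated diabetic ones. The groups were apart by -0.70 log2 units, or 0.617 of the nondiabetic ratio. The markers behind the mean varied widely themselves, with log2 fold changes of -0.23 for Sox17, -0.04 for Ptprb and 0.05 for Plvap at the low end and of 1.12 for Fabp4 and 1.16 for Gpihbp1 at the high end, so a difference from the mean is not particular to Tek. Flt1 was lower relative to the mean by -0.52, Nrp1 by -0.50 and Kdr by -0.19, each with the groups apart, and the ligand Vegfc was lower by -0.68. Angpt2 differed by -0.32 with overlapping samples (exact permutation p = 0.3). For Tek, Flt1, Nrp1, Kdr and Vegfc the exact permutation p was 0.1, the smallest possible. The mean of Kdr, Flt1, Tek and Tie1 relative to the endothelial mean was lower by -0.34 log2 units in diabetic than in nondiabetic samples, again without overlap. Among 21 leukocyte markers 9 were called higher with diabetes, with means of 8.72 ± 0.270 and 9.27 ± 0.246, and of 20 mesangial markers 1 was higher and 4 lower. No podocyte marker was called. The part of these shifts in the receptor values was not tested.

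**Figure D4:**
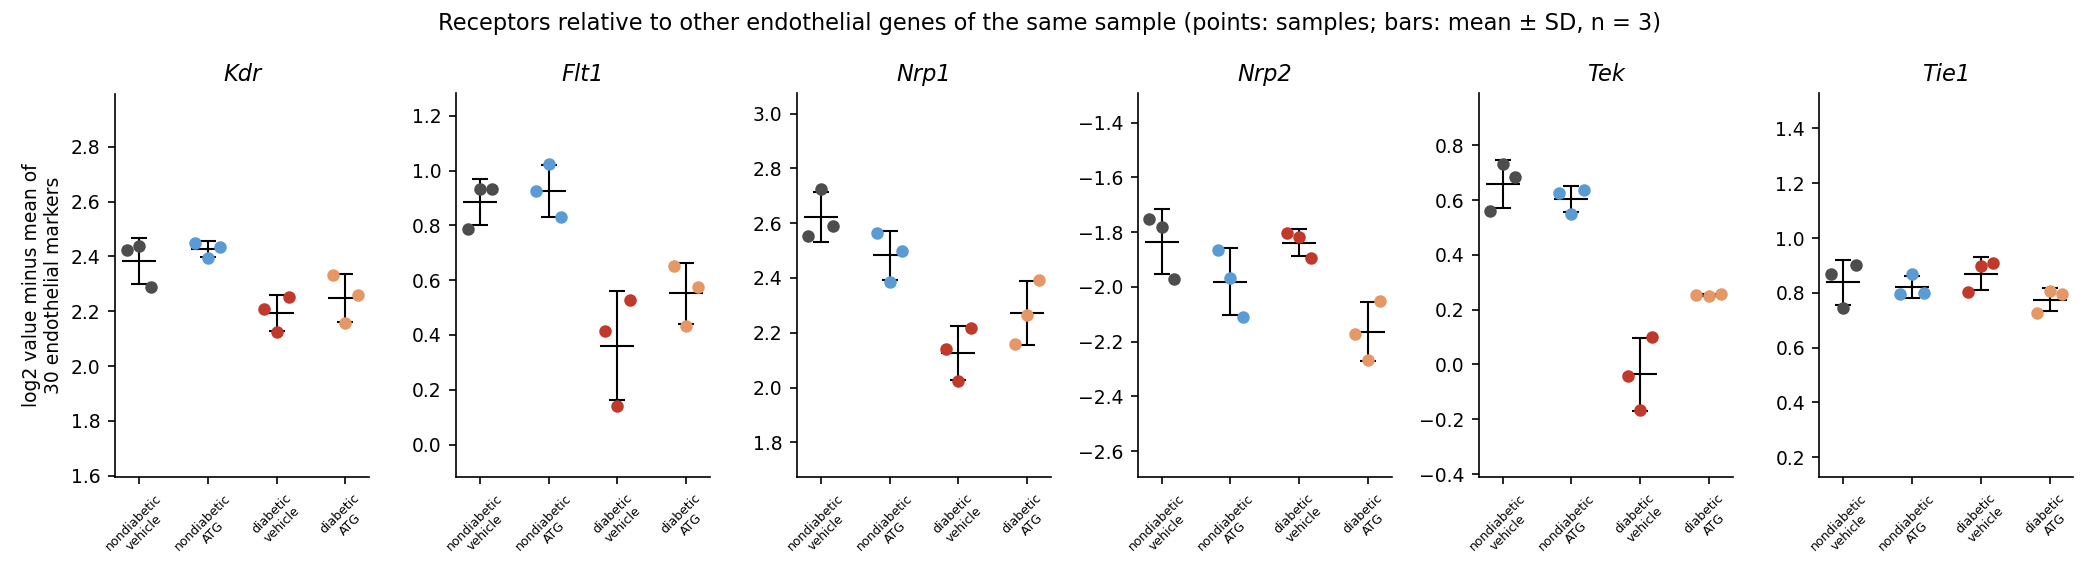
Log2 value of each receptor minus the mean of 30 endothelial markers of the same sample (vertical axis, the same span in every panel) in the 4 groups (horizontal axis), with 1 point per sample and bars for mean ± SD, n = 3. Tek is lower in all vehicle-treated diabetic samples than in all others, Flt1 and Nrp1 are lower than in both nondiabetic groups, and Tie1 overlaps across the 4 groups.

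The second question was whether ATG moved these genes in diabetic mice. No member was called, as was no gene of all 14096 (0%), with limma adjusted p for the members of 1.00 and the lowest over all genes at 0.248. Without adjustment 1 member had a p under 0.05, beside 636 genes or 4.51%. That member was Nrp2, at 10.57, 10.44 and 10.59 in ATG-treated diabetic samples, all below the vehicle-treated diabetic samples and above the vehicle-treated nondiabetic ones (log2 fold change -0.30, SE 0.109). Tek was at 12.99, 12.96 and 12.90, above every vehicle-treated diabetic sample (0.32, SE 0.162). Nrp2 and Tek were the 2 members whose groups did not overlap, beside 10.2% of all genes. Against the endothelial mean of the sample, which hardly differed between the diabetic groups (12.67 and 12.70), Tek was higher with ATG by 0.29 log2 units and Nrp2 lower by -0.33, both without overlap (exact permutation p = 0.1, the smallest possible). The ATG-treated diabetic samples held Tek at 0.25, 0.25 and 0.26 log2 units above that mean, still below every nondiabetic sample. Tie1 minus Tek was 0.47, 0.56 and 0.54 in these samples, below every vehicle-treated diabetic sample and above every vehicle-treated nondiabetic one, with a difference from vehicle of -0.38 log2 units (exact permutation p = 0.1). Flt1 minus Kdr was -1.68, -1.73 and -1.68, overlapping the vehicle-treated diabetic samples and below every vehicle-treated nondiabetic one. These diabetic comparisons share the vehicle-treated diabetic samples, so a low or high sample there moves both.

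For the other members in diabetic mice, the 95% intervals of the log2 fold change with ATG bound what was seen. They were -0.30 to 0.66 for Angpt1, -0.33 to 0.33 for Angpt2, -0.55 to 0.59 for Vegfa and -0.76 to 0.38 for Vegfc. For the receptors they were -0.27 to 0.43 for Kdr, -0.15 to 0.59 for Flt1, -0.17 to 0.52 for Nrp1 and -0.41 to 0.27 for Tie1. Angpt1 in particular stayed low, with ATG-treated diabetic samples at 7.83, 8.29 and 8.48, all under the lowest vehicle-treated nondiabetic sample at 8.94. Tubule markers overlapped between the diabetic groups, at a mean of 11.64 with vehicle and 11.98 with ATG. Leukocyte markers also overlapped, with a mean lower by -0.47 log2 units with ATG and 20 of 21 markers negative, none of them called.

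In nondiabetic mice ATG gave the larger differences. Of the 10 members, 5 were called lower and none higher, beside 4.51% of all genes called lower and 5.22% in either direction. Nrp2 was at 9.31, 9.59 and 9.82 in ATG-treated nondiabetic samples, all below the controls (log2 fold change -0.77, SE 0.109, limma adjusted p = 0.00719). Angpt2 was at 10.32, 10.72 and 10.90 (-0.79, SE 0.152, adjusted p = 0.0188), and Nrp1 at 13.74, 13.94 and 14.42 (-0.77, SE 0.156, adjusted p = 0.0241). Tek was at 11.80, 12.11 and 12.57 (-0.68, adjusted p = 0.0393) and Tie1 at 11.97, 12.42 and 12.73 (-0.64, adjusted p = 0.0407). Sample 1 was the lowest and sample 3 the highest of the group for each of these 5. Vegfc (-0.99, adjusted p = 0.0507), Kdr (-0.58, 0.0562) and Flt1 (-0.59, 0.0661) lay just outside the threshold, all 3 with the groups apart, and Vegfa (-0.50, 0.207) and Angpt1 (0.43, 0.196) overlapped the controls. In all, 8 members did not overlap, beside 34.4% of all genes.

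These nondiabetic calls depended on the samples in the fit. With only the 2 groups compared, no member and no gene passed. Leaving out ATG-treated nondiabetic sample 1 or 2, or vehicle-treated nondiabetic sample 1 or 3, left 1 member called, which was Nrp2. Without vehicle-treated nondiabetic sample 2, vehicle-treated diabetic sample 1 or any ATG-treated diabetic sample, 3 members were called, and without ATG-treated nondiabetic sample 3 or vehicle-treated diabetic sample 3 there were 8. The counts over all genes moved too, with 636 called lower with all samples in the fit. They were 60 to 200 where 1 member was called, 335 to 415 where 3 were, and 2467 and 963 where 8 were. Marker lists moved in the same samples. The endothelial mean was 11.18, 11.56 and 11.93 in ATG-treated nondiabetic samples, with 15 of 30 markers called lower, and 13 of 20 mesangial markers were called lower. The leukocyte mean was lower by -0.45 log2 units with the groups apart, and 20 of 21 leukocyte markers had negative fold changes, though none was called. The mesangial mean was lower by -0.84 log2 units with the groups apart, and all 20 mesangial markers had negative fold changes. The podocyte mean was 13.42 ± 0.572 against 13.99 ± 0.0796 in the controls, with overlapping samples. All 30 podocyte markers had negative fold changes, though none was called. The tubule mean was 13.81 ± 0.313 against 13.08 ± 0.313, with the groups apart and summed linear tubule values of 732925 to 1068927. All 30 tubule markers had positive fold changes, though none was called. Relative to the endothelial mean of the sample, Tek (-0.05), Tie1 (-0.02), Kdr (0.04), Flt1 (0.04), Nrp1 (-0.14) and Nrp2 (-0.15) all overlapped between the nondiabetic groups, with exact permutation p from 0.2 to 0.9. Angpt2 was lower by -0.16 relative to it, with the groups apart (exact permutation p = 0.1). With the tubule covariate no member was called in any comparison, though for ATG in nondiabetic mice the log2 fold changes of Angpt2 (-0.93, limma adjusted p = 0.0628) and Nrp2 (-0.74, adjusted p = 0.0614) were about as large as without it. Those of Tie1 (-0.55), Tek (-0.49), Nrp1 (-0.58), Kdr (-0.47), Flt1 (-0.38) and Vegfa (-0.07) were smaller than without it. Over all genes, 45 were called with the covariate and 736 without it. The tubule means of these groups were apart, so this fit cannot well separate the covariate from ATG. The part of these cell type shifts in the nondiabetic ATG result was not tested further. Besides the short title number used as a block, each title opens with a longer number. Those longer numbers each belong to samples of 1 group only, so if they mark batches, batch and group cannot be told apart.

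The difference between the ATG effects in diabetic and in nondiabetic mice was tested directly. No member passed, beside 0.546% of all genes, while 7 members had an unadjusted p under 0.05, beside 12.9%. Tek had the lowest adjusted p, with a difference of 1.00 log2 units (SE 0.229, limma adjusted p = 0.0878), followed by Nrp1 at 0.94 (SE 0.221, adjusted p = 0.0955). Without ATG-treated nondiabetic sample 3 there were 7 members called, beside 770 of all genes, so both counts rest on that sample. With all samples in the fit, 77 genes were called. In ATG-treated mice, diabetic against nondiabetic, 8 members were called beside 46.7% of all genes, Angpt1 lower and Angpt2, Kdr, Flt1, Nrp1, Nrp2, Tek and Tie1 higher by 0.77 to 1.10 log2 units, beside 25.9% of all genes higher and 20.8% lower. Markers moved in the same samples, with 29 of 30 endothelial markers called higher (mean log2 fold change 1.15), 29 of 30 tubule markers lower (-1.83), and 13 of 20 mesangial and 10 of 30 podocyte markers higher. With the tubule covariate all 8 calls were lost, and 56 of all genes were called, against 6585 without it. The tubule means of these groups were apart, so this fit cannot well separate the covariate from diabetes. The SE of each of the 8 rose, from 0.109 to 0.227 for Nrp2 and from 0.217 to 0.452 for Angpt1. Log2 fold changes were 0.27 for Flt1, 0.31 for Tek and 0.47 for Nrp1, against 0.77, 0.80 and 0.94 without it. They were 1.31 for Angpt2, 0.87 for Nrp2 and 0.86 for Tie1. The part of these markers was not tested further. Vegfa (0.66, adjusted p = 0.057) and Vegfc (0.62, adjusted p = 0.0713) did not pass. This comparison shares samples with both ATG comparisons and is not independent of them.

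**Figure D5:**
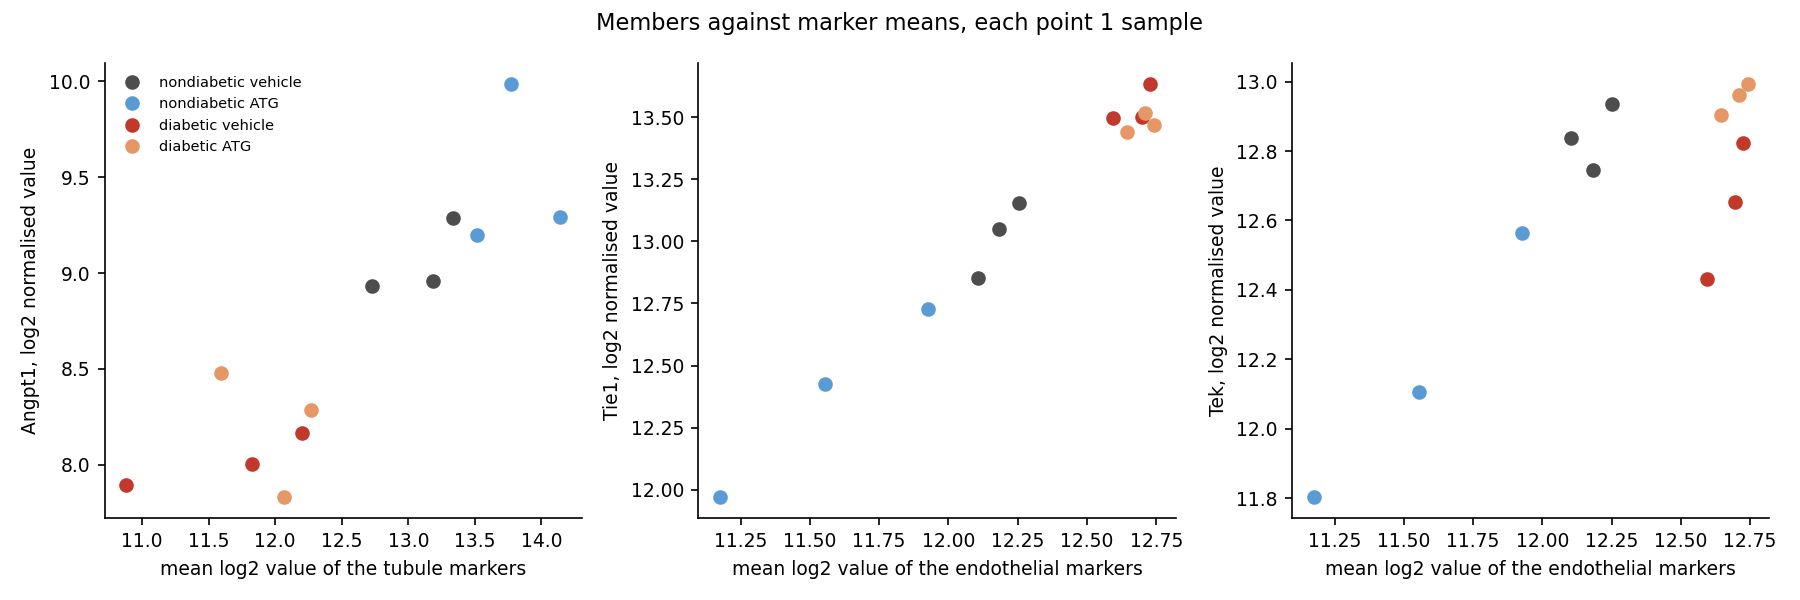
Log2 normalised value of Angpt1 against the mean of 30 tubule markers, and of Tie1 and Tek against the mean of 30 endothelial markers, with 1 point per sample coloured by group. Angpt1 is low in the diabetic samples where the tubule mean is also low, Tie1 follows the endothelial mean through all groups, and the vehicle-treated diabetic samples lie below the other groups' course for Tek.

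The rest of the pathway was read from lists of 118 listed genes. With diabetes in vehicle-treated mice, 13 were called higher and 4 lower, with a median log2 fold change of 0.06 beside 0.008 for all genes. Of all genes, 10.2% were called higher and 8.63% lower, so nothing is read as particular to the pathway. Among the semaphorins and plexins, the other ligands and partners of the neuropilins, 4 of 12 rose and none fell. They were the plexin receptors Plxna2 (0.48, SE 0.105), Plxnd1 (0.39, SE 0.114) and Plxna4 (0.30, SE 0.0905) and the NRP2 ligand Sema3f (0.61, SE 0.162). Of 16 receptor partners and modulators, 4 rose, namely VE-cadherin Cdh5 (0.64, SE 0.150), which is also 1 of the endothelial markers, the integrin subunit Itga5 (0.59, SE 0.130), the membrane protease Mmp14 (0.49, SE 0.118) and perlecan Hspg2 (0.39, SE 0.0984). Ptprb, the phosphatase that restrains TEK, was not called. The genes named as higher all had limma adjusted p-values under the threshold.

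Among 11 other ligands and receptors of the families, only the angiopoietin-like gene Angptl7 passed, lower in diabetes (-1.19, SE 0.196, limma adjusted p = 0.00515). Of 34 genes that relay the signal below the receptors, the kinases Akt1 (0.31, SE 0.0566) and Mapk3 (0.27, SE 0.0793) rose. Of 17 endothelial genes known to be induced by VEGF, 2 passed, in opposite directions. The calcineurin inhibitor Rcan1 rose (0.80, SE 0.206) and the secreted proteoglycan Esm1 fell (-0.89, SE 0.141, adjusted p = 0.00462), from 11.01 ± 0.249 to 10.12 ± 0.179. The HIF axis, which drives Vegfa in low oxygen, gave no call among 9 genes. Of 21 HIF target genes, the vasodilator peptide gene Adm rose (1.14, SE 0.305), as did the glycolytic regulator Pfkfb3 (0.54, SE 0.156), while the mitophagy receptor gene Bnip3 (-0.64, SE 0.166) and Ndrg1 (-0.70, SE 0.215) fell. Tubule markers differed beside these values too, and their part was not tested.

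With ATG in diabetic mice none of the 118 pathway genes was called. In nondiabetic mice 11 were called lower and 1 higher, beside 4.51% of all genes lower and 5.22% in either direction. With only the 2 groups compared in the fit none of the 14096 genes passed, and 8 did without both nondiabetic samples that lack a title number. The lower genes included Plxnd1 (-0.80, SE 0.114), Plxna1 (-0.40, SE 0.0828), Hspg2 (-0.58), Mmp14 (-0.60), Cdh5 (-0.68), Itga5 (-0.58), the relay genes Pik3r1 (-0.35), Prkca (-0.68) and Plcg1 (-0.26), and the endothelial HIF subunit gene Epas1 (-0.63). Ndrg1 was higher (0.84). This comparison and that of diabetes in vehicle-treated mice share the vehicle-treated nondiabetic samples. Nos3, the gene deleted in all mice, was still listed, at 10.07 to 11.40 log2 units over the 12 samples. Without wild-type samples the deletion could not be checked here.

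The genes most like each member over the 12 samples, by Pearson r of log2 values and given as a description, are named here. The 12 points share groups, so r reflects the group differences too. For Vegfa they were Nphs1os, Col4a5 and Sh3bgrl2 (r from 0.983 to 0.986), the first antisense to the nephrin gene and not separable from it without strand. For Tie1 they were Numb, Pofut2 and the endothelial adhesion gene Pecam1 (0.994 to 0.996). For Tek they were Cbfa2t3, Hip1 and Tmeff2 (0.974 to 0.985), and Hip1 was also among the top 3 for Flt1 and Nrp1. For Nrp2 they were Git2, Rbpms and its partner receptor gene Plxnd1 (0.976 to 0.989), and for Kdr they were Mapk11, Actn4 and Klhl5 (0.987 to 0.988). For Angpt2 they were Pdgfb, Bgn and Tgfb3 (0.963 to 0.973), for Vegfc Mustn1, Lbh and Ptgis (0.947 to 0.949), and for Angpt1 Tldc1, Hdhd2 and Trabd2b (0.983 to 0.993). The names say which genes ran in parallel and nothing of shared function or control.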

How the data were processed

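Glomeruli were isolated by magnetic bead perfusion and their poly-A mRNA was sequenced. The labels also describe dissociation and sorting of glomerular cells, which the study's methods for this experiment do not. The deposited files hold, for each of 12 samples, log2 values made by the authors. The submitters' processing notes name mm10 and limma, and the aligner and counter are not given in the sources used here. The values behaved as the log2 of read numbers times 1 factor per library, with no division by length: below 2000 reads, 83.4% to 84.1% of the values came within 0.02 of a whole read. A minimum of 10 reads in all samples was met by 14087 genes.

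Log2 values were fitted with limma 3.58.1 in R 4.3.3 (a trend in the prior variance, all 12 samples in 1 fit of 4 groups), Benjamini-Hochberg over 14096 genes, threshold 0.05. Differences within a sample were tested with two-sided exact permutation tests (scipy 1.17.1). The fitting was tested on simulated data. Alternatives were a read minimum of 10, only the groups compared, a block for the number in the title, leaving out samples, median-ratio scaling, limma-voom, no trend, a pseudocount of 1, a tubule marker covariate and a threshold of 0.1. Differences of single members from the endothelial, podocyte (for Angpt1), mesangial and tubule marker means were chosen after seeing the data. The difference of the mean of Kdr, Flt1, Tek and Tie1 from the endothelial mean was planned. Members and lists were chosen with earlier results of these data known. Named pathway genes are up to 4 per list and direction with the lowest p for diabetes in vehicle-treated mice among those called, and any called with ATG, and for each member the 3 genes with the highest r. RPKM were computed from recovered reads and the listed transcript length, which for genes with several transcripts is only 1 of them. Coordinates are of GRCm38.p6, which matched the listed gene positions. Within groups r was 0.972 to 0.994 and no pair was identical. Sample numbers in the titles did not pair the samples: correlations of same-numbered deviations ran from -0.59 to 0.339 over all pairs of groups, and not every pair passed 0.1. Genes not listed in the files were not analysed here. A called gene of the pathway lists is not reported here.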

Additional observations from a re-analysis of the deposited data

How the results depend on the processing

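For diabetes in vehicle-treated mice (3 members, 2659 genes), the tubule covariate left 0 members and 244 genes and a threshold of 0.1 gave 4136 genes. For ATG in nondiabetic mice (5 members, 736 genes), only the groups compared gave 0 and 0, leaving out both nondiabetic samples without a title number 0 and 8, median-ratio scaling and limma-voom 3 members each, the covariate 0 and 45, and a threshold of 0.1 gave 8 and 2145. Under median-ratio scaling 24.2% of the genes called there were higher, beside 13.6%. For diabetes in ATG-treated mice (8 members, 6585 genes), leaving out both unnumbered samples gave 4314 genes and the covariate 0 members and 56 genes. For the difference of the ATG effects (0 members, 77 genes), leaving out both gave 6 genes, limma-voom 22, no trend 19, the covariate 36, and a threshold of 0.1 gave 2 members and 215 genes.

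With the replicate block, 1 member and 1375 genes were called for diabetes in vehicle-treated mice and 8 genes for the difference of the ATG effects. The numbers were not shown to pair samples.

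Leaving out each sample in turn gave 1 to 3 members and 801 to 3357 genes for diabetes in vehicle-treated mice, 0 and 0 for ATG in diabetic mice, 1 to 8 and 60 to 3531 for ATG in nondiabetic mice, 8 to 10 and 4766 to 7451 for diabetes in ATG-treated mice, and 0 to 7 and 6 to 770 for the difference. The extremes of 3357, 3531, 7451 and 770 came without ATG-treated nondiabetic sample 3. Angpt2 minus Angpt1 ranged from 1.07 to 1.31 for diabetes and from -0.38 to 0.0058 for ATG in diabetic mice, Flt1 minus Kdr from -0.40 to -0.26 and 0.06 to 0.19, Tie1 minus Tek from 0.64 to 0.79 and -0.43 to -0.31, Vegfa minus the podocyte mean from -0.085 to 0.064 and 0.03 to 0.18, and the mean of 4 receptors minus the endothelial mean from -0.39 to -0.30 and 0.06 to 0.16.

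Signs turned only for differences that had not passed. Leaving out each sample in turn, the value for diabetes in vehicle-treated mice ranged from -0.13 to 0.38 for Vegfa, -0.14 to 0.12 for Flt1 and -0.076 to 0.087 for Nrp1, and, relative to the endothelial mean, from -0.072 to 0.037 for Nrp2 and -0.014 to 0.066 for Tie1. For ATG in diabetic mice it ranged from -0.22 to 0.29 for Vegfa and -0.11 to 0.15 for Angpt2, from -0.16 to 0.16 for Angpt2 relative to the endothelial mean, and for Angpt1 from -0.11 to 0.23 relative to the mesangial and -0.49 to 0.15 relative to the tubule mean. With diabetes in vehicle-treated mice, Vegfa was -0.19 with the replicate block and -0.72 with the covariate, and Nrp2 minus the endothelial mean was 0.037 without both unnumbered samples. With ATG in diabetic mice, Angpt2 was 0.018 with median-ratio scaling and with limma-voom. In ATG-treated mice, Vegfa was -0.43 with the covariate. The causes were not tested. The 3 samples in each group limit what can be called.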
